A study of Rattus norvegicus with 30 samples.

Results

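Proximal acid-base handling and ammonia formation were followed through 6 genes, *Slc9a3*, *Slc4a4*, *Car2*, *Car4*, *Car14* and *Glud1*, of the 32545 genes in the deposited table. They were chosen by name for their roles, with earlier results of these data known, and each matched 1 row of the table. The proximal tubule reclaims most of the bicarbonate that is filtered by the glomerulus. Its apical Na+/H+ exchanger secretes protons, which turn luminal bicarbonate into CO2 and water with the help of membrane-bound carbonic anhydrase, and cytosolic carbonic anhydrase forms bicarbonate again inside the cell. A basolateral Na+-bicarbonate cotransporter then returns it to the blood. The same cells break down glutamine to ammonium and new bicarbonate in the mitochondria, a pathway that the kidney uses to excrete acid.

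The data are mRNAseq libraries from the cortex (Cx) and outer medulla (OM) of the right kidney of male Sprague–Dawley rats. The LS rats ate an AIN-76A diet with 0.4% NaCl, while rats named HS14 or HS21 were given 4.0% NaCl over 14 or 21 d, with 5 libraries per tissue and diet and 30 in all. All rats were of 1 strain and no genetic change is labelled, GEO's labels give no age, and only 1 LS group is labelled, so time on the diet and age cannot be told apart. By the study's methods, 5 kidneys of each group were divided into Cx and OM, so both tissues came from the same kidneys. Neither the labels nor the methods say whether equal replicate numbers mark 1 kidney, and tests between the tissues treat the libraries as separate samples.

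Levels are given in CPM, the counts of a gene relative to the total of its library, on a common scale set for the 30 libraries by edgeR's TMM factors (a trimmed mean of log ratios between libraries). Changes are log2 ratios with SE from edgeR's quasi-likelihood F-test on the counts. A gene is called raised or lowered when its *P* is under 0.05 after adjustment for all genes of the comparison (Benjamini-Hochberg). Between 5408126 and 21842843 reads were counted per library, the fewest in replicate 10 of OM HS14. The least abundant member in Cx, *Car14*, still had 642 or more counts in every Cx library. The thick ascending limb markers were all higher in OM than in Cx on LS (7 of 7), and of 18 proximal tubule markers 12 were lower and 2 higher in OM. Replicate 2 of OM LS had the highest sum of the 18 proximal tubule markers in OM (27473 CPM against a group median of 13590 CPM). Replicate 5 of OM LS had the highest sums of the thick ascending limb, principal, intercalated and endothelial cell markers of its group. Replicate 10 of Cx HS14 had the highest sums of the thick ascending limb, distal convoluted tubule, principal and intercalated cell markers of its group. It also had the lowest mean log2 CPM of the proximal tubule markers in that group. Several results are also given without these libraries or with each library left out in turn.

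The sequences around an annotated start are shown for the pair lowered together in Cx at HS21, *Slc4a4* and *Glud1*. Promoter windows of 300 bases (250 before and 50 after the annotated start) were available from RefSeq on build GRCr8 for 5 of the 6 members, all but *Car2*. Capitals mark GC boxes (GGGCGG on either strand), TATA boxes (TATAAA) and E-boxes (CACGTG), which do not overlap each other here. The *Slc4a4* window lies on the minus strand at chr14:19468233-19468532, inside the RefSeq span of the gene, and the *Glud1* window on the plus strand at chr16:9646319-9646618.
Slc4a4: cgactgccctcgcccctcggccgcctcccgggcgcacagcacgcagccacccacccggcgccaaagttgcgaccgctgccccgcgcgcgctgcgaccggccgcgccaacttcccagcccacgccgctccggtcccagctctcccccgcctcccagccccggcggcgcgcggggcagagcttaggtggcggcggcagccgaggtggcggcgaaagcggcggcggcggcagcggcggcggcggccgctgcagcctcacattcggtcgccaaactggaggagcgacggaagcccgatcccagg
Glud1: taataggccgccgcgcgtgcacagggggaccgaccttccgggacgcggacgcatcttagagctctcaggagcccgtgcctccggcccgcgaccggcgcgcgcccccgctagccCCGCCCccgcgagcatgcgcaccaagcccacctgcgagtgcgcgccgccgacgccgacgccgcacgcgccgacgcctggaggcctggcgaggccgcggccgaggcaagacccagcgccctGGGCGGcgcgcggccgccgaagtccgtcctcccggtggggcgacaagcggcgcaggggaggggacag

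Both windows were rich in G and C, at 78% each, against a median of 51.7% over the 33469 promoters of the table. The *Glud1* window held 2 GC boxes and the *Slc4a4* window 0, where 33.1% of all promoters hold at least 1. Neither held a TATA box (14.2% of all promoters) or an E-box (6.42%). Among the other members, *Slc9a3* had 2 GC boxes and 1 E-box, *Car4* 1 TATA box, and *Car14* none of these letters. The *Car4* window, like that of *Slc4a4*, lies inside the RefSeq span of its gene. Whether a window holds the start used in the kidney was not tested. A match of letters is a description of the window and shows no binding.

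In Cx on LS, *Glud1* and *Car2* transcripts were the most abundant of the 6 per length and *Slc9a3* transcripts the least. Glutamate dehydrogenase (*Glud1*, ENSRNOG00000057367, Rnor_6.0 chromosome 16, 10662021 to 10695557), which releases ammonium from glutamate in the mitochondria, was at 526 ± 26.8 CPM per kb of gene length (SD, n = 5). Cytosolic carbonic anhydrase 2 (*Car2*, ENSRNOG00000009629, chromosome 2, 88097720 to 88113029) was at 361 ± 20.8 CPM per kb, and the basolateral Na+-bicarbonate cotransporter NBCe1 (*Slc4a4*, ENSRNOG00000003134, chromosome 14, 20479323 to 20920286) at 237 ± 7.26 CPM per kb (SD, n = 5 for each). Lower came the membrane-bound carbonic anhydrases 4 (*Car4*, ENSRNOG00000002916, chromosome 10, 72272248 to 72281067) at 67.5 ± 9.25 and 14 (*Car14*, ENSRNOG00000023162, chromosome 2, 198010349 to 198016898) at 50.7 ± 6.89 CPM per kb (SD, n = 5 for each). The apical exchanger NHE3 (*Slc9a3*, ENSRNOG00000015159, chromosome 1, 31734327 to 31777070) was at 41.2 ± 2.94 CPM per kb (SD, n = 5). In this order *Glud1*, *Car2*, *Slc4a4* and *Car4* did not overlap with their neighbours above. *Car4* (from 55.4 CPM per kb) overlapped with *Car14* (to 55.9), and *Car14* (from 38.9) with *Slc9a3* (to 46.1).

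**Figure D1:**
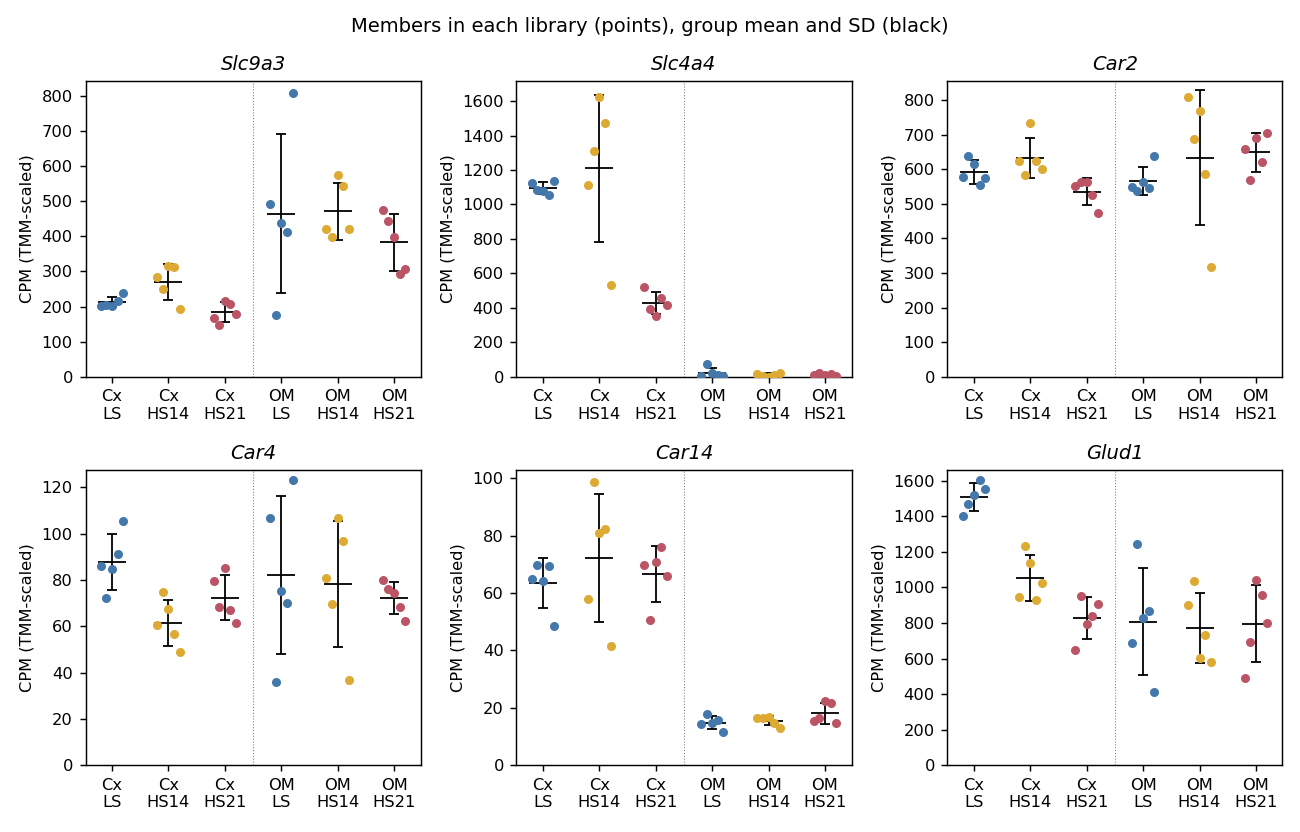
TMM-scaled CPM (vertical axis, from 0) of the 6 members in each library of the 6 groups, with the group mean and SD in black. In Cx, *Slc4a4* at HS21 (349.6 to 519 CPM) lay below every LS library (1058 to 1138 CPM), and *Glud1* was lower in every HS14 and HS21 library (1234 CPM or less) than in any LS library (1403 CPM or more), while *Slc4a4* was at 73.2 CPM or less in every OM library.

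On LS the members divided between the tissues, and 4 of the 6 differed between OM and Cx, 1 higher and 3 lower in OM, beside 40.9% of the 14295 genes tested. *Slc4a4* was at 1125, 1084, 1077, 1058 and 1138 CPM in the 5 Cx libraries and at 4.55, 73.2, 22.4, 12.5 and 3.45 CPM in the 5 OM libraries. Every OM library was far below every Cx library, and the highest OM value came from replicate 2, the library with the most proximal tubule transcripts. The log2 ratio was −5.56 (SE 0.84, adjusted *P* = 0.000493), and −6.69 (adjusted *P* = 8.02e-06) without that library. *Car14* was at 63.4 ± 8.61 CPM in Cx and 14.9 ± 2.19 CPM in OM (SD, n = 5 each), a log2 ratio of −2.10 with SE 0.13 (adjusted *P* = 2.74e-06) with no overlap. *Glud1* was at 688, 1244, 826, 870.2 and 411 CPM in OM, again highest in replicate 2, against 1403 to 1602 CPM in Cx. Its log2 ratio was −0.90 (SE 0.24, adjusted *P* = 0.0126), and between −1.13 and −0.73 with each library left out in turn. *Glud1* thus differed less between the tissues than *Slc4a4* or *Car14*.

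*Slc9a3* was the only member higher in OM, where the thick ascending limb also uses this exchanger for bicarbonate reabsorption. It was at 201, 206, 203, 216 and 238 CPM in Cx and at 491, 176, 437, 412 and 809.8 CPM in OM. All OM libraries but replicate 2 exceeded the highest Cx library, and the OM values were spread widely. The log2 ratio was 1.12 (SE 0.30, adjusted *P* = 0.0140), and it was between 0.83 and 1.32 with each library left out in turn. *Car2* (592 ± 34.2 CPM in Cx, 566 ± 41.2 CPM in OM) and *Car4* (87.9 ± 12 and 82.3 ± 34 CPM) were not called (SD, n = 5 for each). The 95% interval of their log2 ratios reached from −0.23 to 0.09 for *Car2* and from −0.63 to 0.42 for *Car4*. These ratios hold under TMM scaling, and total-count scaling moved the median of all genes in this comparison to 0.27 and turned both of these small differences positive (*Car2* 0.17, *Car4* 0.18), with neither called.

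**Figure D2:**
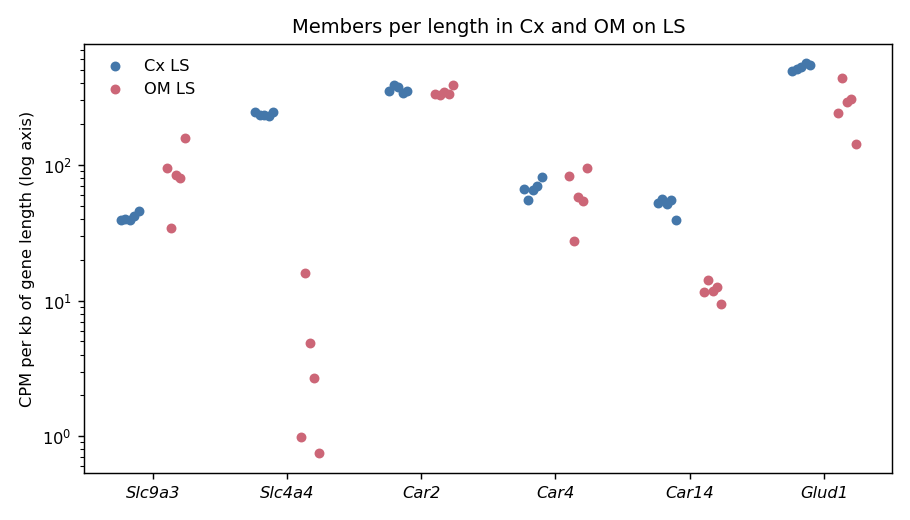
CPM per kb of gene length on a log axis for the 6 members in the 5 Cx and 5 OM libraries on LS. *Slc4a4* and *Car14* were lower in every OM library, *Car2* overlapped between the tissues, and *Slc9a3* was higher in 4 of 5 OM libraries.

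At HS14, 2 of the 6 members were lowered in Cx and 0 raised, where 2.33% of the 14181 genes tested were called in either direction. They were *Glud1* and *Car4*. *Glud1* was at 1403, 1467, 1519.9, 1602 and 1551 CPM on LS and at 948, 1234, 1138, 929 and 1026 CPM at HS14. Every HS14 library lay below every LS library, with a log2 ratio of −0.52 with SE 0.081 (adjusted *P* = 0.0111), and the gene was called in each of the 10 fits that left out 1 library.

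*Car4* was at 86.3, 72.1, 84.7, 91.2 and 105 CPM on LS and at 60.5, 74.8, 67.4, 56.7 and 48.9 CPM at HS14. The groups overlapped in 1 library of each, replicate 2 of LS and replicate 7 of HS14. The log2 ratio was −0.52 (SE 0.12, adjusted *P* = 0.0438), close to the threshold, and the call was lost in 7 of 10 fits that left out 1 library (without replicates 1, 3, 4 or 5 of LS or replicates 6, 8 or 9 of HS14, with log2 ratios from −0.45 to −0.55). *Car4* is therefore the less certain of the pair.

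The other 4 members were not called in Cx at HS14. *Slc9a3* was at 285, 249.7, 316, 312 and 192 CPM, and 4 of the 5 HS14 libraries lay above the highest LS library (238 CPM). Its log2 ratio was 0.34 (SE 0.12, adjusted *P* = 0.144), and without replicate 10, the HS14 library with the lowest value, it was 0.44 and called (adjusted *P* = 0.0116). *Slc4a4* was at 1113, 1308, 1624, 1474 and 530.0 CPM, so that 3 libraries were above every LS library and replicate 10 was less abundant than any. Its log2 ratio of 0.13 (SE 0.22, adjusted *P* = 0.819) became 0.32 (adjusted *P* = 0.0804) without replicate 10. *Car2* had a log2 ratio of 0.09 with SE 0.068 (adjusted *P* = 0.554), and *Car14* one of 0.18 (SE 0.19, adjusted *P* = 0.700).

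At HS21, *Slc4a4* and *Glud1* were lowered in Cx and 0 members were raised. That is 2 of 6 members, in a comparison in which 39.4% of the 14299 genes tested were called. *Slc4a4* was at 519, 395, 349.6, 455 and 418 CPM, against 1058 to 1138 CPM on LS. The highest HS21 library had less than any LS library, and the log2 ratio was −1.36 (SE 0.091, adjusted *P* = 3.69e-06), which corresponds to 0.389 times the LS level. *Glud1* was at 649.7, 951, 795, 841 and 904 CPM, again with no overlap with LS, and had a log2 ratio of −0.87 with SE 0.091 (adjusted *P* = 5.1e-05). For both genes the two-sided exact permutation *P* was 0.00794, the smallest that 5 against 5 libraries can give, and both calls were kept in all 10 fits that left out 1 library. With all 30 libraries in 1 fit, which shares 1 spread between Cx and the more variable OM, the *Slc4a4* ratio was the same (−1.36) but was not called (adjusted *P* = 0.127).

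The apical exchanger and the carbonic anhydrases changed less at HS21. *Slc9a3* was at 167, 148, 217, 207 and 179 CPM, partly within the LS range, with a log2 ratio of −0.21 with SE 0.097 (adjusted *P* = 0.101). Without replicate 13 of HS21 it was −0.28 and called (adjusted *P* = 0.0275). *Car4* was at 79.6, 68.2, 85.3, 67.3 and 61.5 CPM, with a log2 ratio of −0.28 with SE 0.11 (adjusted *P* = 0.0551) that was called by DESeq2 (adjusted *P* = 0.0472) and without replicate 2 of LS (−0.35, adjusted *P* = 0.0240) or replicate 13 of HS21 (−0.35, adjusted *P* = 0.0209). *Car2* fell within a narrow range, 473 to 564 CPM against 554 to 638 CPM on LS, and its log2 ratio of −0.15 (SE 0.062, adjusted *P* = 0.0794) was not called. *Car14* had a log2 ratio of 0.07 with SE 0.12 (adjusted *P* = 0.672), with a 95% interval from −0.16 to 0.30.

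**Figure D3:**
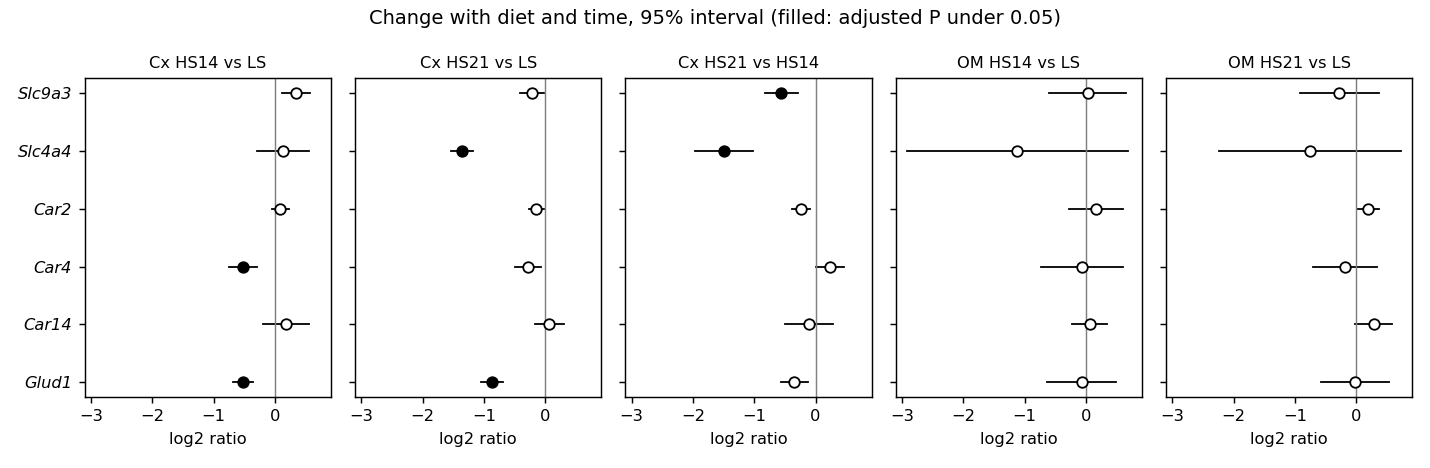
Log2 ratio with its 95% interval (horizontal axis) of each member in 5 comparisons, filled where the adjusted *P* was under 0.05. *Slc4a4* stands apart in Cx at HS21, at −1.36 against LS and −1.49 against HS14, and its intervals in OM are the widest of the 6 members.

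The members followed different courses between 14 and 21 d in Cx. From HS14 to HS21, 2 of the 6 were lowered and 0 raised, where 16.2% of the 14395 genes tested were called. *Slc4a4* had a log2 ratio of −1.49 with SE 0.24 (adjusted *P* = 0.00644), and even the lowest HS14 library, replicate 10 at 530.0 CPM, was above the highest at HS21. With each library left out in turn its log2 ratio was between −1.69 and −1.37, and it was called in all 10 fits. *Slc9a3* had a log2 ratio of −0.56 with SE 0.14 (adjusted *P* = 0.0242), from 271 ± 51.5 CPM at HS14 to 184 ± 28.2 CPM at HS21 (SD, n = 5 each). This call was lost in 5 of 10 fits that left out 1 library (without replicates 6, 8 or 9 of HS14 or replicates 11 or 15 of HS21), with log2 ratios from −0.50 to −0.55, and with the proximal tubule markers as scale (−0.039, adjusted *P* = 0.741), a setting described with the cell markers.

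The other steps from HS14 to HS21 were smaller. *Glud1* had a log2 ratio of −0.34 with SE 0.11 (adjusted *P* = 0.0591), called only without replicate 12 of HS21 among those fits (−0.40, adjusted *P* = 0.0496) and by DESeq2. Every HS21 library of *Car2* lay below every HS14 library (473 to 564 against 585 to 733 CPM), with a log2 ratio of −0.24 with SE 0.075 (adjusted *P* = 0.0524). The *Car2* difference was called without replicate 10 of HS14 (−0.26, adjusted *P* = 0.0363), without replicate 13 of HS21 (−0.26, adjusted *P* = 0.0485) and by DESeq2 (−0.24, adjusted *P* = 0.0171). *Car4* was the one member with a positive ratio, 0.24 (SE 0.12, adjusted *P* = 0.182), which was called under total counts (0.36, adjusted *P* = 0.0444), a scale that moved the median of all genes from 0.01 to 0.13. *Car14* was at −0.11 (SE 0.20, adjusted *P* = 0.729). The HS14 and HS21 comparisons with LS share their LS libraries, so the values of a member in them are not independent.

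Cell markers moved in the same Cx libraries. All 18 proximal tubule markers were lowered at HS21 (median log2 ratio −0.71 against 0.005 over all genes tested), and their summed level was 16310 to 21493 CPM at HS21, 20609 to 27843 CPM at HS14 and 27365 to 30240 CPM on LS. None of the 18 was at 0 in any group. A separate list for the S3 segment of the proximal tubule did not fall with them. Of its 4 genes tested at HS21, 1 was raised and 0 lowered (median log2 ratio 0.49). The summed level of the S3 list was 384 to 614 CPM at HS21 and 393 to 595 CPM on LS. Of the intercalated cell markers 9 of 9 were raised at HS21 (summed level 1596 to 2616 CPM against 1120 to 1414 CPM on LS, none at 0), and of the leukocyte markers 8 of 8 tested (1176 to 3189 CPM against 849 to 999.8 CPM, none at 0 in the whole group). At HS14, 2 of 18 proximal tubule markers were lowered (median −0.18) and 5 of 8 leukocyte markers raised. In pieces of tissue, fewer cells of a type and less RNA per cell cannot be told apart, and the part of these shifts in the changes of the members was not tested.

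The members were therefore also set against the proximal tubule markers. In each library the mean log2 CPM of the 18 markers was subtracted from that of the member. For *Slc4a4* this difference was 0.20 ± 0.067 on LS, 0.45 ± 0.46 at HS14 and −0.44 ± 0.28 at HS21 (SD, n = 5 each), and every HS21 library (−0.88 to −0.11) lay below every LS library (0.09 to 0.25). *Slc4a4* thus fell further than the mean of the 18 markers, which does not show how single markers fell. For *Glud1* it was 0.66 ± 0.059 on LS, 0.35 ± 0.24 at HS14 and 0.51 ± 0.27 at HS21, with overlapping groups at HS21.

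Scaling the Cx libraries by the geometric mean of these markers in place of TMM gave the test of the same difference. *Slc4a4* remained lowered at HS21, at −0.63 (SE 0.11, adjusted *P* = 0.000202), whereas *Glud1* was no longer called (−0.13, SE 0.11, adjusted *P* = 0.267). *Slc9a3* (0.50), *Car2* (0.58), *Car4* (0.44) and *Car14* (0.79) were raised on this scale, with adjusted *P* from 2.24e-05 to 0.00126. The scale itself moved the median of all genes from 0.005 to 0.73, and relative to that median only *Car14* of these 4 was higher. On LS the proximal tubule markers had a median log2 ratio of −2.55 in OM against Cx. *Car2* and *Car4* were not called there, and *Slc9a3* was higher in OM. Whether these members come from the same cells as the markers was not tested. At HS14, where the median moved to 0.22, the same scaling gave *Slc9a3* at 0.54 (adjusted *P* = 0.00818, called), *Glud1* at −0.30 (adjusted *P* = 0.101) and *Car4* at −0.32 (adjusted *P* = 0.0927), so neither of the decreases at HS14 was called on it. From HS14 to HS21, where the median moved to 0.52, *Slc4a4* remained lowered (−0.93, adjusted *P* = 0.00286), *Slc9a3* was not called (−0.039), and *Car4* (0.76, adjusted *P* = 0.00137) and *Car14* (0.43, adjusted *P* = 0.0220) were raised, of which only *Car4* was above that median.

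**Figure D4:**
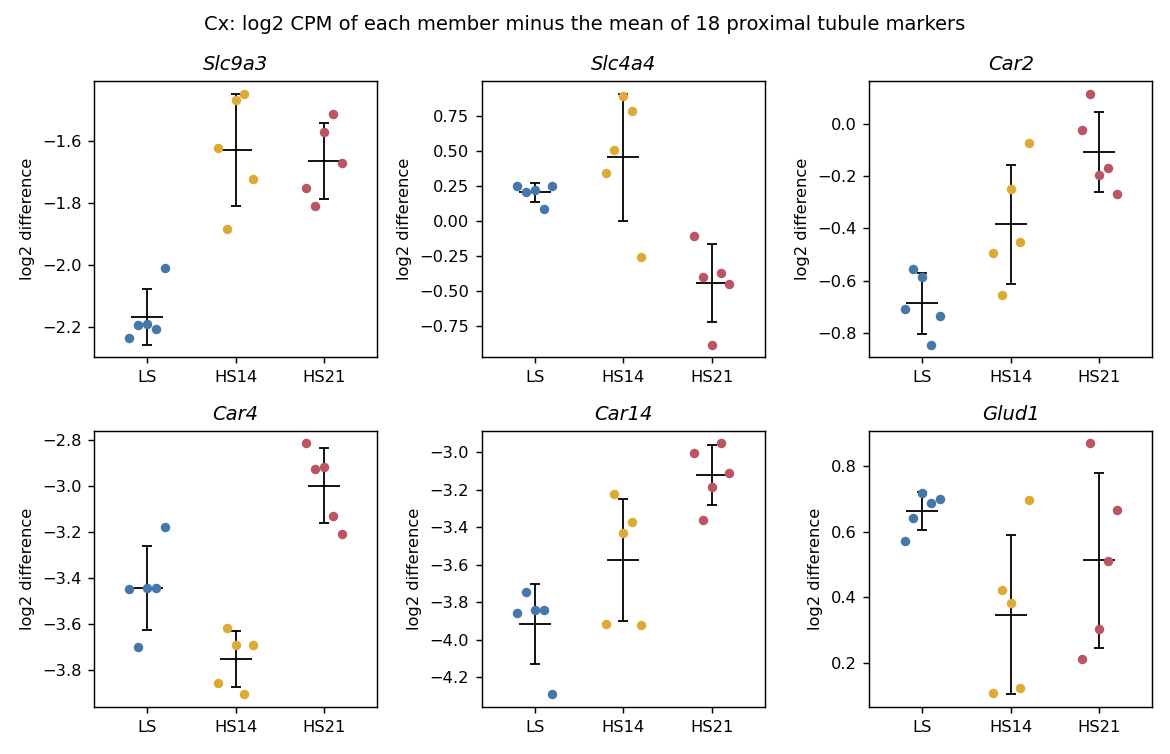
Log2 CPM of each member minus the mean log2 CPM of 18 proximal tubule markers (vertical axis, which does not start at 0) in the 15 Cx libraries by diet, with the mean and SD in black. *Slc4a4* is the only member with HS21 below LS without overlap, and *Slc9a3*, *Car2* and *Car14* lie above LS in every HS21 library.

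In OM, 0 of the 6 members were called at HS14, where 0.00694% of the 14417 genes tested (1 gene) were called, and 0 at HS21, where 0.769% of 14555 were. None of the 6 had an unadjusted *P* under 0.05 in either comparison, and 0 were called by DESeq2 or by limma on FPKM. *Slc4a4* was at 16.9, 3.58, 1.15, 9.91 and 22.3 CPM at HS14 and at 12.4, 23.3, 9.01, 16.8 and 6.88 CPM at HS21. These values lay within the LS range but for the lowest, and the log2 ratio at HS21 was −0.75 (SE 0.76, adjusted *P* = 0.828) with replicate 2 of LS and 0.34 (adjusted *P* = 0.812) without it. At HS14 it was −1.12 (SE 0.92, adjusted *P* = 0.994) with that library and −0.02 without.

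*Glud1* was at 772 ± 195 CPM in OM at HS14 and 797 ± 217 CPM at HS21, against 808 ± 303 CPM on LS (SD, n = 5 each), and *Slc9a3* at 472 ± 81.7, 383 ± 80.5 and 465 ± 227 CPM. Their 95% intervals at HS21 ran from −0.58 to 0.53 for *Glud1* and from −0.92 to 0.37 for *Slc9a3*. The log2 ratio of *Slc9a3* in Cx at HS21 (−0.21, not called) lay within the *Slc9a3* interval. A difference of that size could not be told from none in OM. The *Slc9a3* ratio in OM at HS21 was −0.27 with replicate 5 of LS and 0.008 (adjusted *P* = 0.993) without it. *Car2* was steadier, at 658, 568, 690.0, 621 and 706 CPM at HS21 against 536 to 638 CPM on LS, with a log2 ratio of 0.20 with SE 0.091 (adjusted *P* = 0.465). *Car4* (−0.19, SE 0.27) and *Car14* (0.28, SE 0.15) were not called at HS21 either. In OM 0 of 18 proximal tubule markers were called at HS21 (median −0.17; summed level 5677 to 14007 CPM against 3887 to 27473 CPM on LS), while 5 of 9 leukocyte markers were raised.

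The difference between the tissues was tested as the change at HS21 in OM minus that in Cx. Of the 6 members 0 were called, where 0.665% of the 15194 genes tested were, and 2 had an unadjusted *P* under 0.05. *Glud1* differed by 0.84 (SE 0.31, unadjusted *P* = 0.0148, adjusted *P* = 0.204), and without replicate 2 of OM LS by 1.07, which was called (adjusted *P* = 0.0277). Without that library 8.28% of 15391 genes were called in this comparison. *Car2* differed by 0.34 (SE 0.11, unadjusted *P* = 0.00625, adjusted *P* = 0.154), from −0.15 in Cx to 0.20 in OM, and this was called by DESeq2 (0.36, adjusted *P* = 0.0187). *Slc4a4* differed by 0.60 (SE 0.78, adjusted *P* = 0.750), and by 1.72 (adjusted *P* = 0.0584) without that same library. The large decrease of *Slc4a4* in Cx is thus not shown to differ from its change in OM, where the transcript was scarce.

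The other genes of acid-base transport and ammonia handling were taken as 5 lists with 88 genes beside the members. In Cx at HS21 25 of the 77 tested rose and 27 fell, which is 67.5% of them beside 39.4% of all genes. The direction depended on the scaling, with 31 raised and 22 lowered under total counts and 64 raised and 1 lowered on the proximal tubule marker scale, and the fit of all 30 libraries gave 10 and 5. The directions of list genes given for Cx are those under TMM. At HS14 0 of 76 rose and 1 fell, beside 2.33% of all genes called, carbonic anhydrase 7 (*Car7*, −0.91, SE 0.16, adjusted *P* = 0.0165). With 1 library left out 0 to 1 rose and 0 to 2 fell at HS14, 0 of them lowered without replicate 4 of LS, 1 raised without replicate 6, 7 or 10 of HS14 and 2 lowered without replicate 7 or 10. In OM 0 of the list genes were called at HS14, and at HS21 only the glutamine transporter *Slc38a2* was, at −0.71 (SE 0.14, adjusted *P* = 0.0491), a call that was kept only without replicate 2 of LS among the 10 fits that left out 1 library. For comparison, the 6 members had a median log2 ratio of −0.25 in Cx at HS21, against 0.005 over all genes.

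Of 18 acid and bicarbonate transporters tested in Cx at HS21, 6 rose and 6 fell (median −0.04). The cotransporter *Slc4a5* (−1.30, SE 0.30, adjusted *P* = 0.00574) and the sulfate-anion exchanger *Slc26a1* (−0.88, SE 0.086, adjusted *P* = 3.36e-05) fell beside *Slc4a4*, as did the proton pump subunit *Atp6v1b2* (−0.77). The electroneutral cotransporter *Slc4a7* rose (1.35, SE 0.35, adjusted *P* = 0.00956), as did *Slc4a11* (0.97) and the exchanger *Slc9a4* (0.93). Family members of *Slc4a4* and *Slc9a3* therefore moved both ways. Of 10 other genes of the carbonic anhydrase family, 4 rose, led by *Car3* (1.71), *Car13* (0.76) and *Car11* (0.57). Another 4 fell, among them *Car7* (−0.97), *Car6* (−0.57) and the mitochondrial *Car5b* (−0.56, SE 0.048, adjusted *P* = 1.57e-05).

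Around *Glud1*, 5 of 19 genes of glutamine use and ammonia formation rose and 8 fell in Cx at HS21 (median −0.15). Phosphoenolpyruvate carboxykinase *Pck1*, which draws carbon from glutamine into glucose, fell (−0.82, SE 0.15, adjusted *P* = 0.00155). The apical amino acid transporter *Slc6a19* (−0.70) and *Ogdh* (−0.63), a subunit of the 2-oxoglutarate dehydrogenase that uses the product of *Glud1*, fell too. The glutaminase *Gls2* (1.09, SE 0.15, adjusted *P* = 0.000256), the amino acid transporter *Slc1a5* (0.87) and the alanine aminotransferase *Gpt* (0.66) rose. Of 9 ammonia transport genes 4 rose, with the ammonia channel *Rhcg* (0.91), the potassium channel *Kcnj1* (0.83) and the cotransporter *Slc12a1* (0.55) ahead, and *Kcnj15* fell (−0.99). *Rhcg* is itself one of the intercalated cell markers, of which 9 of 9 rose, and *Kcnj1* and *Slc12a1* are among the thick ascending limb markers, of which 3 of 7 rose. *Slc6a19* is on the proximal tubule list. The part of such shifts in these changes was not tested.

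Of 21 partners and acid-response genes, 6 rose and 8 fell (median −0.12). The receptor *Egfr* (−0.81), the peptidase *Dpp4* (−0.65) and the parathyroid hormone receptor *Pth1r* (−0.51) fell, and the proton-sensing receptor *Gpr4* (0.99), the bicarbonate-sensing cyclase *Adcy10* (0.77) and endothelin *Edn1* (0.71) rose. From HS14 to HS21, 6 of 77 genes of the 5 lists rose and 19 fell in Cx (32.5%, beside 16.2% of all genes), *Slc4a5* furthest (−1.22, SE 0.27, adjusted *P* = 0.0144). Here too the balance turned with the scaling, to 12 raised and 10 lowered under total counts and 47 and 2 on the marker scale, while the fit of all 30 libraries gave 0 and 3. Leaving out 1 library gave 2 to 15 raised (15 without replicate 10 of HS14, and 2 or 3 without any other HS14 library or without replicate 11, 12, 14 or 15 of HS21) and 9 to 24 lowered (9 or 10 without replicate 7, 8 or 9 of HS14). Between OM and Cx on LS 20 of 76 were higher and 28 lower in OM (63.2%, beside 40.9% of all genes), and 28 and 25 under total counts. There *Slc6a19* (−5.69) and *Pck1* (−3.74) were lower in OM beside *Slc4a4*, and *Slc4a10* (5.58), *Slc4a11* (4.55), *Slc4a7* (4.53) and *Slc12a1* (3.96) were higher. In the tissue difference at HS21 2 list genes were called, *Ogdh* (0.80, SE 0.12, adjusted *P* = 0.00501) and *Atp6v1b2* (0.76, SE 0.11, adjusted *P* = 0.00501). Without replicate 2 of OM LS, where 8.28% of all genes were called, 7 were called in each direction, and 1 was negative without replicate 3 or 5 of OM LS.

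**Figure D5:**
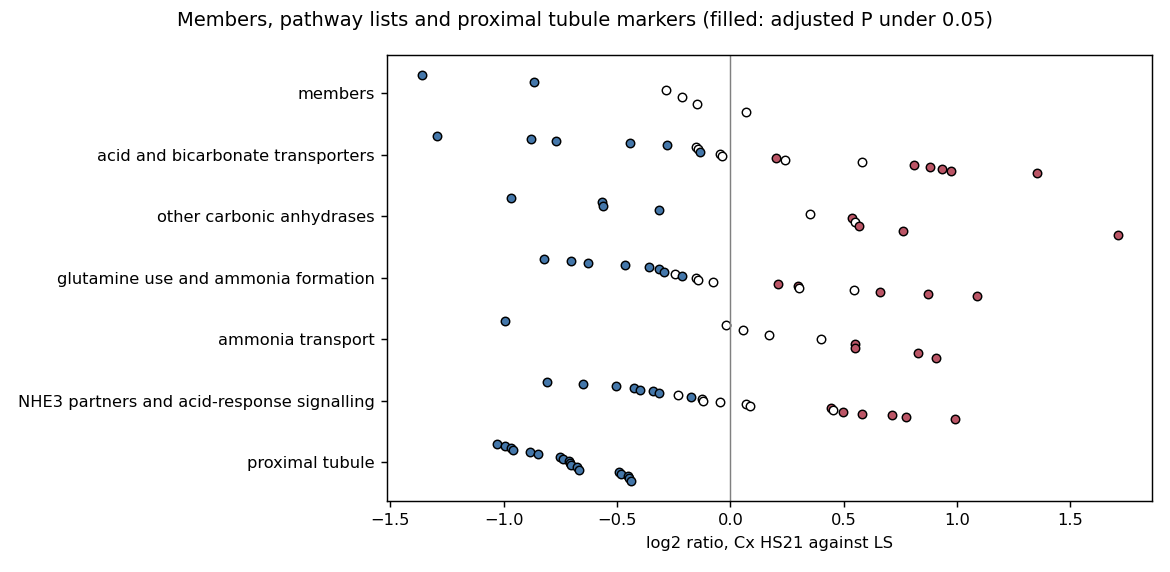
Log2 ratio of Cx HS21 against LS (horizontal axis) for the members, the 5 pathway lists and 18 proximal tubule markers, 1 point per tested gene, filled where the adjusted *P* was under 0.05 (red raised, blue lowered). The lists spread to both sides, from *Slc4a5* at −1.30 to *Car3* at 1.71, while the proximal tubule markers are all on the lowered side.

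Over the 15 Cx libraries the members did not vary as 1 group. The Pearson correlation of log2 CPM was 0.74 for *Slc9a3* with *Slc4a4*, 0.68 for *Slc4a4* with *Car2*, 0.64 for *Slc4a4* with *Glud1* and 0.63 for *Slc9a3* with *Car2*. *Glud1* with *Slc9a3* gave 0.18 and *Car14* with *Glud1* gave −0.08. In the 15 OM libraries *Slc9a3* ran against *Glud1* (−0.78) and *Slc4a4* (−0.66) and with *Car4* (0.79). These libraries share diet groups and the make-up of the dissected piece, so the coefficients are descriptions without a test.

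Among 13344 protein-coding genes, those most like *Slc4a4* over the 15 Cx libraries were *Slc6a19* (r = 0.979), *Tanc2* (0.979) and *Kcnj15* (0.978), and those most like *Glud1* were *Hadh* (0.937), *Mapk9* (0.933) and *Mpzl2* (0.932). *Slc9a3* was most like *Fasn* (0.920), *Trpv4* (0.902) and *Fads1* (0.896). For *Car2* the nearest were *Slc25a3* (0.917), *Phka1* (0.906) and *Cyp2r1* (0.903), and for *Car4* *Slc25a42* (0.921), *Fbxo22* (0.849) and *Angptl7* (0.833). *Car14* had the weakest likeness to any gene, with *RGD1304595* (0.794), *Gp9* (0.791) and *Col9a1* (0.781). Over the 15 OM libraries some likenesses were kept, as for *Car2* with *Slc25a3* (0.847) and *Glud1* with *Mpzl2* (0.831). Others turned, as for *Car2* with *Phka1* (−0.878) and *Slc9a3* with *Trpv4* (−0.715). For *Slc4a4* they were 0.529 (*Slc6a19*), 0.443 (*Tanc2*) and 0.719 (*Kcnj15*). Genes picked as the highest of 13344 have high coefficients by that choice, and these are descriptions without a test.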

How the data were processed

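Libraries were made from poly(A) RNA with no record of strand, so reads of a gene and of an antisense partner cannot be told apart. Clean reads were aligned by the authors to Ensembl Rnor_6.0 with HISAT2 2.0.5, and the deposited counts, whole numbers per gene without normalization, were made with featureCounts 1.5.0-p3. StringTie 1.3.3b is also named in the submitters' processing notes. The deposited FPKM values are the authors' and were used in an alternative fit only. The gene length in bases is the authors' as well. Group means, fold changes and *P* values of the authors' own comparisons stand in the same table and were not used.

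Samples were grouped by their labels. Each comparison used edgeR 4.0.16 in R 4.3.3 on the counts of the 10 libraries compared (filterByExpr, TMM, glmQLFit and glmQLFTest, no covariates), and the tissue difference used 20 libraries with a tissue by diet interaction. The SE was taken from the same fit, a 95% interval is the log2 ratio with 1.96 SE on either side, and a prior count of 2 was added for log2 CPM. These intervals are approximate and narrower than the F-test implies. For *Car2* in OM at HS21 the interval ran from 0.018 to 0.374, although the unadjusted *P* of the F-test was 0.0554. An interval that leaves out 0 is therefore not a call. All tests are two-sided. Differences between libraries of a group were at least 7.29 times counting noise in the 60 pairs compared, so none was a copy. CPM values carry the spread between libraries and counting error.

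The alternatives were DESeq2's size factors, total counts, no filter, the Wald test of DESeq2 1.42.0, limma 3.58.1 on log2(FPKM + 1) or log2(FPKM + 0.1), 1 fit of all 30 libraries, the proximal tubule markers as scale (Cx only), a replicate block (both tissues only) and each library left out in turn.

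The members and gene lists were chosen with earlier results of these data known. Named genes are all members, up to 3 raised and 3 lowered called genes with the largest absolute log2 ratio per pathway list and comparison, and the 3 protein-coding genes with the highest Pearson correlation to each member over Cx (mean of at least 1 CPM). Of 163 listed genes beside the members 161 were matched by symbol, and the others are not analysed here. Of the remaining marker lists in Cx at HS21, 4 of 4 distal convoluted tubule, 5 of 6 principal cell, 4 of 5 podocyte, 3 of 7 thick ascending limb, 2 of 7 endothelial and 1 of 4 proximal S3 genes were raised, 1 thick ascending limb gene was lowered, and 0 of 4 erythroid genes were called.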

Additional observations from a re-analysis of the deposited data

Results flagged for a closer look

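In 3 of 36 groups of 5 libraries (6 members in 6 groups), 1 library stood apart from the other 4, with a gap to its nearest neighbour of more than 0.71 of the range of the group in log2 CPM. Chance alone flags about 1 in 20 groups. *Car2* in replicate 8 of Cx HS14 was the highest of its group at 733 CPM, with a gap of 0.712 of the range. *Car2* in replicate 5 of OM LS was the highest at 638 CPM, with a gap of 0.713. That OM library also had the highest sums of the thick ascending limb, principal, intercalated and endothelial cell markers of its group. *Car14* in replicate 5 of Cx LS was the lowest at 48.7 CPM, with a gap of 0.769, and without this library the log2 ratio of *Car14* in Cx at HS21 turned from 0.07 to −0.02, called in neither case.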

How the results depend on the processing

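The members' calls in Cx rest on the spread between libraries and on the scaling. In Cx at HS14, limma on log2(FPKM + 1) or log2(FPKM + 0.1) called 1 member, the fit of all 30 libraries 0, and scaling by the proximal tubule markers 1 (*Slc9a3*). At HS21 the fit of all 30 libraries called 1 (*Glud1*) and the marker scale 5, with *Slc9a3* reversed to 0.50, *Car2* to 0.58 and *Car4* to 0.44. From HS14 to HS21 in Cx, DESeq2 called 4 and the fit of all 30 libraries 0, and the marker scale, which moved the median of all genes to 0.52, reversed *Car2* to 0.27, *Car14* to 0.43 and *Glud1* to 0.17 and called *Slc4a4*, *Car4* and *Car14*, but not *Slc9a3* (−0.039). In the tissue difference DESeq2 called 1 (*Car2*). Under total counts, which moved the median of all genes by over 0.1 to 0.13 in both Cx comparisons at HS21, 0.27 between OM and Cx and −0.16 in the tissue difference, 4401 genes were raised and 1653 lowered in Cx at HS21 (TMM: 2702 and 2936), 2084 and 644 from HS14 to HS21 (935 and 1395), and 5546 and 1842 between the tissues (3051 and 2794). The marker scale gave 12326 raised and 163 lowered in Cx at HS21, 510 and 39 at HS14 (162 and 168) and 9656 and 82 from HS14 to HS21. The causes were not tested.

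Signs of members that were not called also turned: under total counts *Slc9a3* in OM at HS14 (−0.044), *Glud1* in OM at HS21 (0.024), *Car14* from HS14 to HS21 in Cx (0.012), *Car2* (0.17) and *Car4* (0.18) between OM and Cx and *Car4* in the tissue difference (−0.047), and with limma *Glud1* in OM at HS21 (0.020 with a pseudocount of 1 and 0.021 with 0.1) and *Slc9a3* in the tissue difference (0.076 and 0.082). With each library left out, 1 to 3 members were called in Cx at HS14, 2 to 4 at HS21, 1 to 3 from HS14 to HS21 and 0 to 1 in the tissue difference. Log2 ratios in OM then ranged at HS14 from −0.19 to 0.31 (*Slc9a3*), −0.26 to 0.11 (*Car4*), −0.015 to 0.13 (*Car14*) and −0.24 to 0.13 (*Glud1*), and at HS21 from −0.48 to 0.0079 (*Slc9a3*), −1.03 to 0.34 (*Slc4a4*) and −0.20 to 0.18 (*Glud1*). In Cx *Car14* ranged from −0.015 to 0.17 at HS21 and from −0.26 to 0.020 from HS14 to HS21. Between OM and Cx *Car4* ranged from −0.29 to 0.071, and in the tissue difference *Slc9a3* ranged from −0.26 to 0.23, *Car4* from −0.076 to 0.28 and *Glud1* from 0.68 to 1.07.

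With the replicate number as a block, OM against Cx kept 1 member higher and 3 lower (2442 and 2569 of all genes) and the tissue difference 0, where *Slc9a3* turned to 0.063. Equal numbers correlated from −0.125 to 0.570 in their deviations (from 0.276 at HS21), and 13 of 15 correlated best with their own number. This is a hint from the data that a number may mark 1 kidney, in which case the reported tests between the tissues leave out a pairing. The sources do not say it, and not every pair was above 0.1, a cut that is no test of pairing. The block was therefore kept as an alternative and not used in the values reported. DESeq2 called far more genes than edgeR at HS14 in Cx (500 raised, 414 lowered) and in OM (90 and 20; 555 and 166 at HS21), and the fit of all 30 libraries fewer in Cx (10 and 9 at HS14, 1397 and 883 at HS21). The depth of 5408126 counts in replicate 10 of OM HS14 limits scarce transcripts most, such as *Slc4a4* in OM.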
